A study of Homo sapiens with 8 samples.

Results

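The effect of re-expressing SMARCB1 for 12 h on RNA levels was examined in the established human cell line G401, derived from a kidney rhabdoid tumor and devoid of SMARCB1. Of the 8 RNA libraries of the study, the 4 titled SMARCB1 Dox (replicates 1 and 2) and SMARCB1 DMSO (replicates 1 and 2) were compared. These cells carry SMARCB1 under a Tet-On system and were given doxycycline (Dox, 0.1 µg/ml) or only its vehicle, dimethylsulfoxide (DMSO), over 12 h. The other 4 libraries, GFP Dox and GFP DMSO, came from G401 cells with inducible GFP given the same treatments, and serve here as the control for each gene named. Both lines therefore lack the endogenous gene, each is a single engineered line, and SMARCB1 came from a transgene. Counts were available for 69215 genes in each library, of which 15931 passed the expression filter and were tested.

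SMARCB1 belongs to the core of the BAF and PBAF types of mammalian SWI/SNF (mSWI/SNF) complexes, which use ATP to slide and evict nucleosomes and so open enhancers and promoters for transcription factors. Its loss is the defining lesion of rhabdoid tumors, which grow as poorly differentiated cells. Polycomb complexes act at many of the same developmental genes in the opposite direction, and lineage factors, signalling receptors and cell cycle inhibitors are among the genes known to depend on this balance.

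The promoters of a few of the genes that moved most are shown first, so that the genes discussed below can be seen as sequence. Each run holds the 250 bases before and the 50 bases after the annotated start in RefSeq (GRCh38.p14), 5′ to 3′ on the gene's strand, and the capitals mark CG dinucleotides. EXPH5 (chr11:108593719-108594018, minus strand) and TRIM62 (chr1:33181994-33182293, minus strand) are among the genes of largest increase, and RGS1 (chr1:192575523-192575822, plus strand) and FGFBP3 (chr10:91909437-91909736, minus strand) are among those of largest decrease.
EXPH5: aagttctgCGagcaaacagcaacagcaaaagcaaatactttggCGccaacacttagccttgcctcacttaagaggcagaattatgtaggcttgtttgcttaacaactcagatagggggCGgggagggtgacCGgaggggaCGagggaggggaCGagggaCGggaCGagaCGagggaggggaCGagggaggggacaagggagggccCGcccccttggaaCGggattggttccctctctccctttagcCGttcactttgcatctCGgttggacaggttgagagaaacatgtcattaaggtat
TRIM62: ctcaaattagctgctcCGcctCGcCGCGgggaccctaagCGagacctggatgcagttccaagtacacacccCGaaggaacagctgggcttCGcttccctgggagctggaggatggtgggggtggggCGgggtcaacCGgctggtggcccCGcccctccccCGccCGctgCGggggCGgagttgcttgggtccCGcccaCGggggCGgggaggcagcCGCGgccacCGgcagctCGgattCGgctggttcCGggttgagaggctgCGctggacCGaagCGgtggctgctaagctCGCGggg
RGS1: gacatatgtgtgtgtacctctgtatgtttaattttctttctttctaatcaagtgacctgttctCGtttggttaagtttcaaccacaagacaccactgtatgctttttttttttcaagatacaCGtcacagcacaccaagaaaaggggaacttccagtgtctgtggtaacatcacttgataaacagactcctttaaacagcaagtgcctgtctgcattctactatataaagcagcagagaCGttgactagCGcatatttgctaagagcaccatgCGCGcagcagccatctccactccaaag
FGFBP3: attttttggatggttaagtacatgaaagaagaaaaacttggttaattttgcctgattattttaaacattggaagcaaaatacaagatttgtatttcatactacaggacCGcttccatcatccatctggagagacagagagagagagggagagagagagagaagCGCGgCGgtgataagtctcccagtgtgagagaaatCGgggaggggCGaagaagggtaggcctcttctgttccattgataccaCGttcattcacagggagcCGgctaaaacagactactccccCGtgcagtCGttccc
The number of CG dinucleotides was 14 in EXPH5, 28 in TRIM62, 6 in RGS1 and 10 in FGFBP3. Medians were 14 over the 27305 promoters of the table and 26.5 over those of the 10066 tested protein-coding genes with an entry. In HS3ST3B1, also of largest increase, the number was 20, and in WDR17, of largest decrease, 19. None of these promoters held the AP-1 letters TGANTCA, the cyclic AMP response element TGACGTCA, the ATF4 core TGATGCAA or the TEAD letters GGAATG on either strand. These letters occurred in 7.76%, 1.98%, 0.923% and 14% of all promoters of the table. Among those of the tested protein-coding genes the shares were 4.21%, 3.46%, 0.447% and 10.6%. A comparison of promoter composition and motifs between called genes was void, since the table held an entry for 78.6% of the 1273 protein-coding genes called higher.

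The induced gene was examined first. SMARCB1 was read at 0.343 and 0.637 CPM (counts relative to the scaled library size) in SMARCB1 DMSO replicates 1 and 2 and at 856 and 841 CPM in SMARCB1 Dox, whereas no GFP library had a SMARCB1 read. Its log2 fold change was 10.72 ± 0.16 (SE, adjusted p 5.15e-20, edgeR), and the difference from the GFP line could not be estimated because the GFP libraries were at 0. Counts assigned to genes lay between 32138684 and 35483832 in the SMARCB1 libraries, and mitochondrially encoded RNAs took 27.9% and 23.9% of them in DMSO replicates 1 and 2, against 22.9% and 21.3% in Dox. A list of 10 genes for rhabdoid cells included CD34, DES and MYOD1, which are usually absent from such cells. Of the 10, 7 were expressed well enough to be tested and 0 were called. Among the 7 were vimentin (VIM, mean 1272 CPM) and the simple epithelial keratins KRT8 (353 CPM) and KRT18 (248 CPM). The oncofetal proteins SALL4 (112 CPM) and IGF2BP3 (338 CPM) were also among them. Of 16 immune markers 4 were tested, and the pan-leukocyte marker PTPRC had at most 2 counts in any library. Fewer transcribing cells and less RNA per cell cannot be told apart in these bulk libraries.

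Re-expression of SMARCB1 raised some genes and lowered others. Of the 15931 genes, 1327 (8.33%) rose and 907 (5.69%) fell, together 14% (edgeR quasi-likelihood test, Benjamini-Hochberg adjusted p under 0.05). The counts of lists and families below are to be read against these shares of all genes. Of the increases 361 exceeded 2-fold, but of the decreases 80 did. In the GFP line 0 genes were called (0%, edgeR), with 266 at an unadjusted p under 0.05 and 0 called by DESeq2. The difference between the Dox effects of the lines was called for 750 genes (4.71%), of which 742 (4.66% of all tested) were also called in the SMARCB1 line. The genes that rose had a median log2 fold change of 0.59, and those that fell one of -0.45, whereas the same genes had medians of 0.01 and -0.01 in GFP cells. Scaling to library totals raised the share of increases among the calls from 59.4% to 80% and shifted the median of all genes by 0.09. Which genes were called also depended on the libraries, and not all of the 2234 were called in each fit without 1 SMARCB1 library. The calls numbered 1284 without SMARCB1 Dox replicate 1 and 1462 without SMARCB1 DMSO replicate 1. Of the 51 gene lists with a called gene, 38 had a total of calls that moved by over 1.5 times when 1 SMARCB1 library was left out.

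The largest increases included adaptors of vesicle traffic and signalling, receptors, and genes of other kinds. EXPH5, an effector of the secretory small GTPase RAB27, lay at 4.01 and 4.46 CPM in DMSO and 21.6 and 29.2 CPM in Dox, while the GFP libraries stayed between 3.41 and 4.51 CPM. The scaffold of the RAF-MEK-ERK cascade KSR1 lay at 6.38 and 8.31 CPM in DMSO and 29.9 and 30.4 CPM in Dox, a log2 fold change of 2.03 ± 0.16 (SE, adjusted p 2.93e-08, edgeR). The rule that chose these largest increases required all Dox values to lie above all DMSO values, so that separation is no added support. The WNT receptor FZD7 lay at 8.16 and 8.25 CPM in DMSO and at 28 and 32.8 CPM in Dox (1.89 ± 0.12, adjusted p 3.14e-09, edgeR), against 6.23 to 7.18 CPM in the GFP line. The vitamin D receptor VDR lay at 2.78 and 2.31 CPM in DMSO and 10 and 7.87 CPM in Dox (1.82 ± 0.22, edgeR adjusted p 5.83e-06). HS3ST3B1, which adds 3-O-sulfate to heparan sulfate, rose by 2.14 on the log2 scale, the ubiquitin ligase gene TRIM62 by 2.06, ZCCHC24 by 1.95 and the apolipoprotein L gene APOL6 by 1.94. The lipoprotein receptor VLDLR rose by 1.96 from 3.16 and 1.7 CPM to 9.97 and 8.7 CPM, but its difference from the GFP line, where it lay at most at 0.365 CPM, was not called (edgeR, adjusted p 0.0807). SCARA3, a scavenger receptor, rose by 1.98, with values between 1.45 and 2.76 when 1 library was left out. C19orf73 rose by 2.80 but shares exons with LIN7B on the opposite strand, and in the GFP line its log2 fold change was 1.74, so that the difference was not called (edgeR, adjusted p 0.295).

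The largest decreases included secreted ligands and a regulator of G protein signalling. RGS1, which speeds up GTP hydrolysis by G alpha subunits, lay at 36.2 and 27.1 CPM in DMSO and at 8.12 and 9.79 CPM in Dox, and between 28.9 and 33.8 CPM in the GFP line. The growth factor gene FGF20 lay at 12.1 and 11.3 CPM in DMSO and 4.1 and 4.38 CPM in Dox (-1.46 ± 0.15, SE, edgeR adjusted p 5.78e-07). FGFBP3, which releases FGFs from the matrix, lay at 22.8 and 22.3 CPM in DMSO and 8.93 and 10.8 CPM in Dox (-1.19 ± 0.12, edgeR adjusted p 4.89e-07). Each of these genes had all Dox values below all DMSO values, which the rule that chose them required. The GFP groups, which were under no such rule, overlapped. The Tie2 ligand ANGPT2 fell from 227 and 167 CPM to 95.7 and 86.4 CPM. BMP6 fell by 1.18 on the log2 scale, the glucuronyltransferase gene B3GAT2 by 1.15, the urotensin-related peptide gene UTS2B by 1.19, NXPH3, whose product binds neurexins, by 1.43, WDR17 by 1.29 and XKR7 by 1.18. The lncRNA DLGAP1-AS3 fell by 2.18, from 11.7 and 13.8 CPM to 1.97 and 3.66 CPM. The genes ANGPT2, BMP6, B3GAT2 and UTS2B overlap exons of another coding gene that lies on the other strand. Since the counting strand was not stated, their counts were uncertain. The same holds for 25 of the 152 genes chosen by rule, not all of them marked where named. SMARCB1, DTX4, CDON, PHF10, PLK1 and RPL22 are among these.

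**Figure D1:**
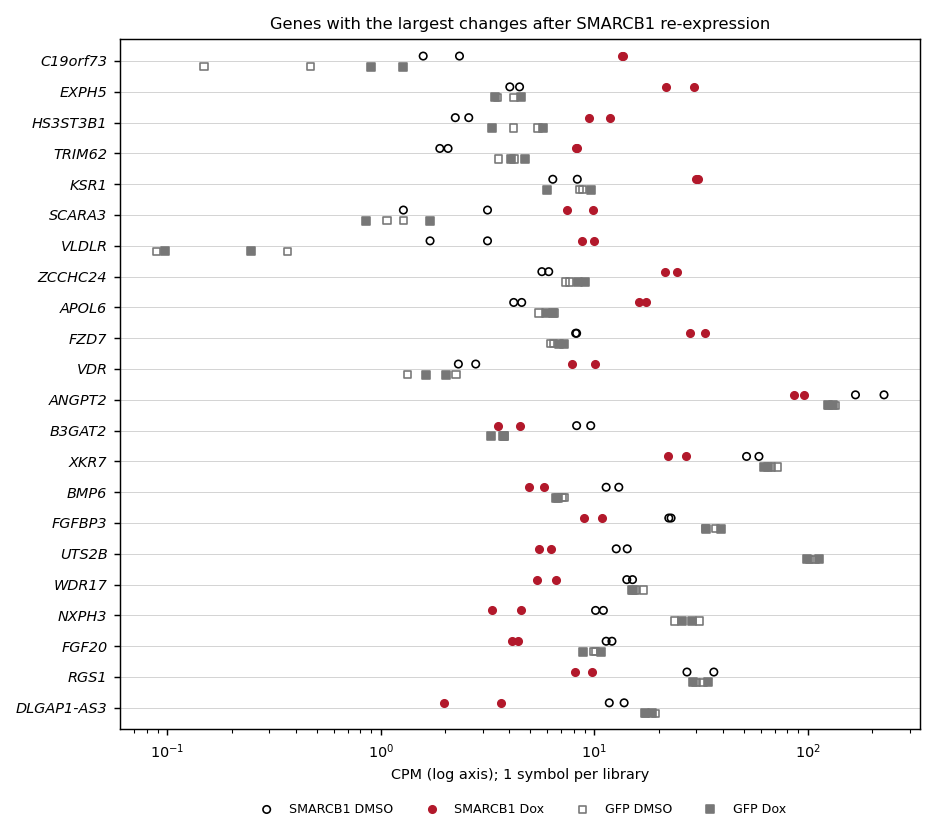
Level of 22 genes with the largest changes other than SMARCB1, in CPM on a log axis, with 1 symbol per library. The genes were chosen so that the 2 SMARCB1 Dox libraries (filled red) lie on one side of the 2 SMARCB1 DMSO libraries (open black). The GFP Dox and GFP DMSO libraries (grey squares), not used in the choice, differ less between treatments. Their largest difference is that of C19orf73, at a log2 fold change of 1.74.

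Measured by change in CPM rather than fold, the abundant membrane and junction genes stood out among nuclear genes. EMP1, a tetraspan membrane protein, lay at 2728 and 2239 CPM in DMSO and 1276 and 1370 CPM in Dox (-0.91 ± 0.10, SE, edgeR adjusted p 1.09e-06). The connexin gene GJA1, which forms gap junction channels in many tissues, lay at 1009 and 867 CPM in DMSO and 453 and 524 CPM in Dox (-0.94 ± 0.09, edgeR adjusted p 4.09e-07). The GFP line kept EMP1 between 2128 and 2302 CPM and GJA1 between 1108 and 1149 CPM in both groups. F2RL2, a protease-activated receptor, fell by 0.62 and WNT2B, a secreted WNT ligand, by 0.78, both uncertain in level because they share exons with IQGAP2 and ST7L on the opposite strand.

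In the list of GATA, FOX and KLF lineage factors, 36 genes were tested, of which 13 rose, 0 fell and 23 were not called. Their median log2 fold change was 0.33 against -0.0038 over all genes. KLF4 was not counted in this list but with the AP-1 and immediate early genes, and it fell by 0.93. KLF5, an epithelial Krüppel-like factor, lay at 1.72 and 1.88 CPM in DMSO and 8.2 and 5.61 CPM in Dox, against 1.23 to 1.63 CPM in the GFP line (1.94 ± 0.23, SE, edgeR adjusted p 4.12e-06). FOXC1, a regulator of mesoderm and kidney development, lay at 53.5 and 63.2 CPM in DMSO and 95.8 and 134 CPM in Dox. FOXO4 rose by 1.35 and GATA6 by 1.31, and the pioneer factor FOXA1, which shares exons with TTC6, by 1.43. Of these factors, 6 rose without SMARCB1 DMSO replicate 1, and 1 fell without SMARCB1 Dox replicate 1. In the HOX clusters, which pattern the body axis, 2 of 33 genes rose and 8 fell, with a median of -0.14. HOXB4 fell by 0.81 and HOXA5 by 0.59, whereas HOXA13 rose from 1.44 and 2.58 CPM to 3.46 and 4.12 CPM. In the GFP line HOXA13 had a log2 fold change of -1.14, and the difference was called (edgeR, adjusted p 0.00297). Without SMARCB1 Dox replicate 1, 1 HOX gene fell, without either DMSO library 4 did and without SMARCB1 Dox replicate 2, 5 did. Kidney and nephron progenitor factors gave 3 higher and 2 lower of 20, with MEOX1 lower by 0.81 and SALL2 higher by 0.48.

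Genes of the contractile cytoskeleton and of adhesion were examined next. Of 45 muscle and contractile genes, 11 rose, 0 fell and 34 were not called (median 0.19). PDLIM3, a Z-disc protein of muscle, lay at 8.58 and 8.55 CPM in DMSO and 21.1 and 23.2 CPM in Dox (1.37 ± 0.14, SE, edgeR adjusted p 6.37e-07). Its GFP libraries lay at most at 0.296 CPM, and PDLIM3 did not pass the test of the difference (edgeR, adjusted p 0.145). The LIM protein CSRP2 rose by 1.18, the slow skeletal troponin gene TNNI1 by 1.75 and calponin (CNN1) by 0.66, and widely expressed members, such as filamins FLNA (0.40) and FLNC (0.62), alpha-actinin ACTN1 (0.45) and non-muscle myosin MYH9 (0.36), rose less. Among 26 integrin and focal adhesion genes, 7 rose, 0 fell and 19 were not called (median 0.18), including the laminin receptor ITGA3 (0.74), the heparan sulfate proteoglycan SDC4 (0.58) and talin TLN2 (0.45). The matrix list gave 8 higher and 3 lower of 41 (median 0.04). Fibrillin FBN1 lay at 29.6 and 23.9 CPM in DMSO and 56.8 and 60.2 CPM in Dox (1.13 ± 0.11, SE, edgeR adjusted p 3.72e-07), and laminin LAMB1, which shares exons with DLD, rose by 0.95 from 84.8 and 72.5 CPM, while the GFP line read it at most at 0.779 CPM. Epithelial junction genes and keratins gave 6 higher and 2 lower of 25 (median 0.29), led by EXPH5, KRT80 (2.30) and plakophilin PKP2 (1.12, from 13.9 and 14.8 to 30.4 and 31.8 CPM). The counts of higher genes without SMARCB1 Dox replicate 1 were 6 for muscle, 3 for integrins, 6 for matrix and 7 for epithelial genes, and without SMARCB1 DMSO replicate 1 they were 6, 8, 9 and 4. Without SMARCB1 DMSO replicate 2, 4 integrin genes rose, and 0 matrix genes fell without either replicate 1.

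**Figure D2:**
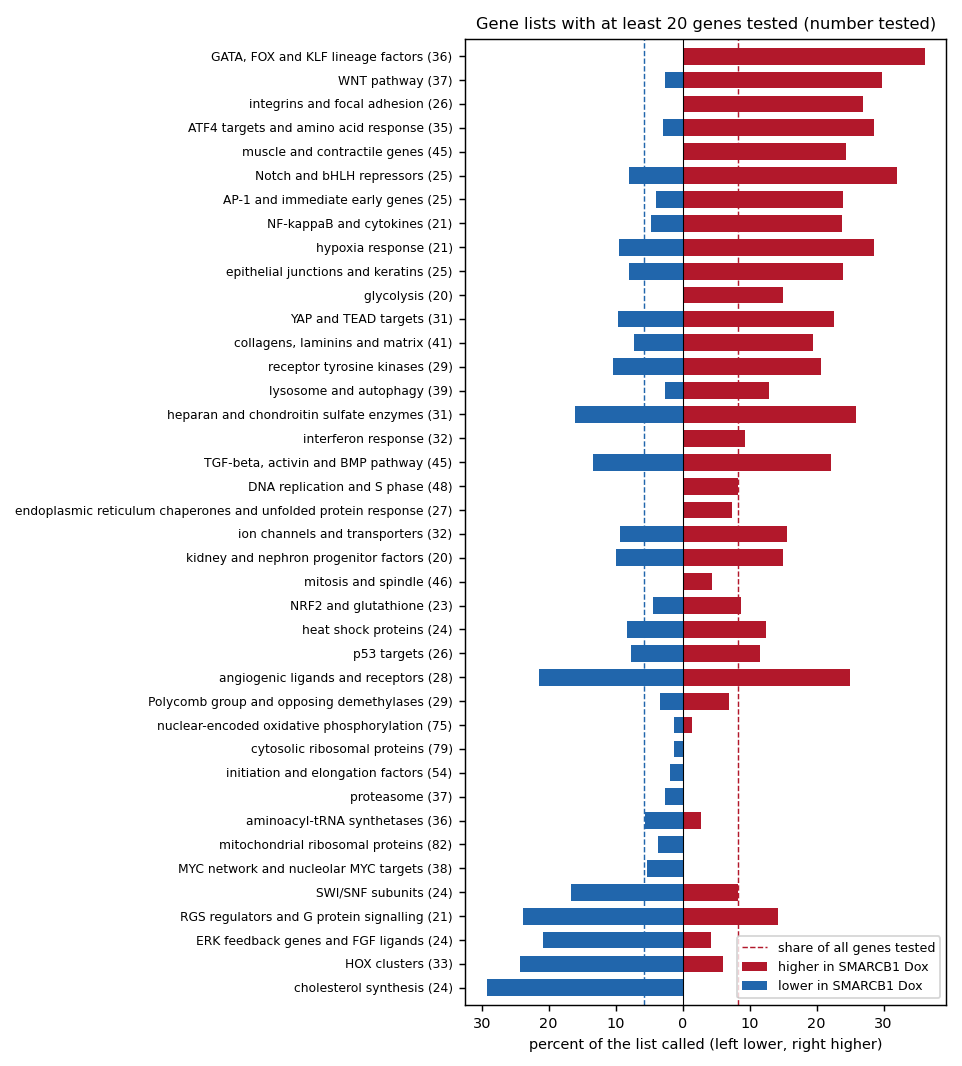
Share of each gene list called higher (right, red) or lower (left, blue) in SMARCB1 Dox against SMARCB1 DMSO, in percent of the genes tested, for lists with at least 20 genes tested (number in parentheses). Dashed lines mark the shares over all genes, 8.33% higher and 5.69% lower. Lineage factors, Notch, WNT, hypoxia, integrin, ATF4 and muscle genes are among those that reach far to the right. Cholesterol synthesis, HOX, ERK feedback and RGS genes reach to the left. Angiogenic genes and heparan and chondroitin sulfate enzymes have long bars on both sides.

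The WNT pathway signals through Frizzled receptors to beta-catenin and TCF factors. Of 37 genes tested, 11 rose, 1 fell and 25 were not called (median 0.18). Besides FZD7, the feedback inhibitor and direct beta-catenin target AXIN2 lay at 2.68 and 2.91 CPM in DMSO and 8.03 and 7.44 CPM in Dox (1.47 ± 0.19, SE, edgeR adjusted p 1.2e-05). The R-spondin receptor LGR4 rose by 1.13, the ligand WNT5B by 1.22, FZD4 by 0.84 and the transcription factor TCF7L1 by 0.57. The gene that fell was WNT2B. Of these 12 calls, 8 were also called for the difference between the lines, and 8 increases and the decrease were called whichever SMARCB1 library was left out. Notch pathway and bHLH repressor genes gave 8 higher and 2 lower of 25 (median 0.21), with the Deltex gene DTX4 higher by 2.29, the coactivator MAML2 by 1.13 and the repressor HES4 by 0.99. These counts were 5 and 0 without SMARCB1 Dox replicate 1. The Hedgehog list gave 4 higher and 1 lower of 13, with the co-receptor CDON higher by 0.98 and the anti-apoptotic target BCL2 lower by 0.66, and 2 of its genes rose when SMARCB1 DMSO replicate 1 or either SMARCB1 Dox library was left out.

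Members of the TGF-beta superfamily changed in both directions. Of 45 genes, 10 rose and 6 fell (median 0.08). The type I receptor TGFBR1 lay at 10.7 and 10.9 CPM in DMSO and 28 and 23.9 CPM in Dox (1.27 ± 0.11, SE, edgeR adjusted p 1.33e-07). Its ligand TGFB1, which shares exons with HNRNPUL1, lay at 16.8 and 16.2 CPM in DMSO and 39.9 and 29.9 CPM in Dox (1.08 ± 0.12). In the GFP line TGFB1 lay between 42.3 and 46.8 CPM, above both of these groups. The activin antagonist FSTL3 rose by 1.07. On the BMP side, the ligand BMP6, the pseudoreceptor BAMBI (-1.06) and the BMP target ID2 (-0.50) fell, while ID4 (1.41) rose. The signal transducer SMAD3 fell by 0.45. There were 8 increases and 3 decreases without SMARCB1 Dox replicate 1.

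Receptor tyrosine kinases changed in both directions. Of 29 receptor kinases, 6 rose and 3 fell. AXL, the receptor for GAS6, lay at 39.3 and 32.4 CPM in DMSO and at 99.5 and 82 CPM in Dox, against 30.5 to 35.5 CPM in the GFP line (1.34 ± 0.10, SE, edgeR adjusted p 1.66e-08). The ephrin receptor EPHB2 rose by 1.91 and FGFR3 by 0.94. The neuregulin receptor ERBB3 fell from 4.43 and 5.28 CPM to 1.4 and 2.32 CPM (-1.39 ± 0.21, edgeR adjusted p 7.79e-05), FGFR2 fell by 0.50 and EGFR by 0.32. Among 24 ERK feedback genes and FGF ligands, 1 rose, 5 fell and 18 were not called (median -0.03), with the ligand FGF5 (-0.63), the ERK phosphatase DUSP6 (-0.56) and SPRY1 (-0.26) beside FGF20 and FGFBP3. The 1 higher gene was the phosphatase DUSP7 (0.50). Without SMARCB1 DMSO replicate 1 and without SMARCB1 Dox replicate 1, 4 fell, and without SMARCB1 Dox replicate 2, 4 rose. Of 21 regulators of G protein signalling, 3 rose and 5 fell, with RGS2 (-0.89) and the protease-activated receptors F2RL1 (-0.63) and F2R (-0.44) among the decreases. Leaving out SMARCB1 DMSO replicate 2, 0 rose, and without SMARCB1 Dox replicate 1, 1 rose.

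Genes for angiogenic and guidance cues and for the sulfated sugars that bind them changed in both directions. Of 28 angiogenic ligands and receptors, 7 rose and 6 fell. The netrin receptor UNC5B lay at 0.343 and 0.425 CPM in DMSO and 3.76 and 3.58 CPM in Dox, close to the 3.64 to 4.38 CPM of the GFP line (3.24 ± 0.28, SE, edgeR adjusted p 6.28e-08). The VEGF and semaphorin co-receptor NRP2 rose from 11.5 and 9.55 to 30.4 and 29.7 CPM, and the ligand PDGFA by 2.26 on the log2 scale. Among class 3 semaphorins, SEMA3B and SEMA3F each rose by 1.32, whereas SEMA3C (-0.51), SEMA3A (-0.39), SEMA3E (-0.37) and SEMA3D (-0.30) fell. The heparan and chondroitin sulfate enzymes gave 8 higher and 5 lower of 31. The chondroitin sulfotransferase gene CHST11 lay at 15.1 and 15.2 CPM in DMSO and 39 and 37.8 CPM in Dox (1.34 ± 0.12, SE, edgeR adjusted p 1.3e-07), and the heparan sulfate polymerase gene EXT1 rose by 0.72, while EXTL2 fell by 0.71. Without SMARCB1 DMSO replicate 2 or without SMARCB1 Dox replicate 1, 4 of these enzymes were called higher, and without SMARCB1 DMSO replicate 1, 2 were called lower. In the insulin-like growth factor system 2 of 14 rose and 2 fell, with the binding protein IGFBP3 lower by 0.75 and the metzincin protease PAPPA lower by 0.62, from 19.9 and 19.6 to 11 and 14.6 CPM.

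Lists of metabolism and of stress responses were examined next. Of 35 ATF4 targets and amino acid response genes, 10 rose and 1 fell (median 0.19), with the bZIP factor JDP2 higher by 1.28, the glycoprotein hormone STC2 by 1.36 and the pseudokinase TRIB3 by 0.57. The member that fell was the amino acid transporter SLC38A2 (-0.33). Leaving out SMARCB1 Dox replicate 1, 5 ATF4 genes were called higher. Endoplasmic reticulum chaperones and unfolded protein response genes gave 2 higher and 0 lower of 27 (without SMARCB1 DMSO replicate 2, 8 fell), and heat shock proteins 3 higher and 2 lower of 24, with the small heat shock protein HSPB8 (1.97) and its partner BAG3 (0.84) higher. Hypoxia genes gave 6 higher and 2 lower of 21. Carbonic anhydrase CA12 lay at 51.7 and 42.4 CPM in DMSO and 86.1 and 82.5 CPM in Dox (0.84 ± 0.09, SE, edgeR adjusted p 1.73e-06), and hexokinase HK2 rose by 0.64. Of 20 glycolysis genes 3 rose and 0 fell, HK1 by 0.70, and of 18 fatty acid synthesis genes 1 rose and 1 fell. Of 24 cholesterol synthesis genes 0 rose and 7 fell (median -0.15), among them the sterol sensor partner INSIG1 (-0.68) and MSMO1 (-0.46). This count rested on SMARCB1 DMSO replicate 1, in which INSIG1 and MSMO1 were read at 26.2 and 79.8 CPM against 18.8 and 52.9 CPM in replicate 2. Without it 2 genes rose and 2 fell, without SMARCB1 Dox replicate 1 the decreases numbered 4, and without SMARCB1 Dox replicate 2 they numbered 3.

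Transcription factors of the immediate response and targets of stress and cytokine pathways gave mixed pictures. Of 25 AP-1 and immediate early genes 6 rose and 1 fell (median 0.19). JUN lay at 2.98 and 2.34 CPM in DMSO and 6.94 and 3.69 CPM in Dox (1.00 ± 0.29, SE, edgeR adjusted p 0.0216), the Fos-related factor gene FOSL2 rose by 0.76 and IER3 by 0.83, and KLF4 fell by 0.93. Leaving out SMARCB1 DMSO replicate 2, 3 of these genes rose. Of 31 YAP and TEAD targets 7 rose and 3 fell. FSTL1, a secreted follistatin-like glycoprotein, lay at 46.5 and 42.1 CPM in DMSO and 127 and 107 CPM in Dox, against 20 to 23 CPM in the GFP line (1.41 ± 0.09, SE, edgeR adjusted p 3.14e-09). The kinase LATS1 fell by 0.41 and YAP1 itself by 0.23, both of them parts of the pathway rather than targets. Without SMARCB1 DMSO replicate 2 or without SMARCB1 Dox replicate 1, 4 YAP and TEAD targets rose. Of 21 NF-kappaB and cytokine genes 5 rose and 1 fell, with the inhibitor NFKBIA higher by 0.39. The increases numbered 1 without SMARCB1 DMSO replicate 1 and 2 when SMARCB1 DMSO replicate 2 or SMARCB1 Dox replicate 1 was left out. Of 32 interferon response genes 3 rose and 0 fell, with PARP9, which shares exons with DTX3L, higher by 0.70 and PARP14 by 0.48. The share called was 9.38% here and 15.4% in the lysosome and autophagy list that follows, against 14% over all genes. Lysosome and autophagy genes gave 5 higher and 1 lower of 39, among them the regulators TFEB (0.76) and TFE3 (0.26), and 1 or 2 rose whichever SMARCB1 library was left out. Ion channels gave 5 higher and 3 lower of 32, with the inward rectifier potassium channel KCNJ2 lower by 0.94, from 93 and 72.8 to 43.2 and 43.5 CPM, and 2 of them rose without SMARCB1 DMSO replicate 2 or without SMARCB1 Dox replicate 1.

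Cell cycle lists differed in the share of genes called at 12 h, against 14% over all genes tested. The share was 8.33% for replication and S phase, 4.35% for mitosis and 5.26% for the MYC network. It was 31.25% for G1 regulators and 19.2% for p53 targets. Of 48 replication and S phase genes 4 rose and 0 fell, with the helicase subunit MCM6 higher by 0.49 (from 61.3 and 69.3 to 86.4 and 97.3 CPM), and of 46 mitotic genes 2 rose and 0 fell, PLK1 by 0.38 and CDC25B by 0.40. Without SMARCB1 Dox replicate 1, 1 S phase gene rose and 3 mitotic genes did. Of 16 G1 regulators 4 rose and 1 fell. CDK6, the D-cyclin partner kinase, lay at 199 and 154 CPM in DMSO and 362 and 278 CPM in Dox (0.86 ± 0.11, SE, edgeR adjusted p 1.82e-05), its cyclin CCND3 rose by 0.65 and the inhibitor CDKN1A by 0.39, while the inhibitor CDKN1B fell by 0.37. Of 26 p53 targets 3 rose and 2 fell, GADD45A by 0.56 and ZMAT3 by 0.50 on the higher side. MYC fell by 0.46, from 148 and 137 to 110 and 96.7 CPM (edgeR adjusted p 0.000631), against 160 to 178 CPM in the GFP line, and of the 38 genes of its network and nucleolar targets 0 rose and 2 fell. Among chromatin regulators, the DNA methyltransferase DNMT3B rose by 0.69, to 52.4 and 58.6 CPM, below the 84.9 to 95.1 CPM of the GFP line. The Polycomb subunit BMI1 fell by 0.64, from 395 and 388 CPM to 232 and 270 CPM (edgeR adjusted p 1.66e-05). Of 24 SWI/SNF subunits other than SMARCB1, 2 rose (DPF1 by 0.81 and BICRA by 0.44) and 4 fell, the PBAF subunit gene PHF10 by 0.45 and ARID2 by 0.28.

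Genes of the housekeeping machineries were seldom called. Of 79 cytosolic ribosomal protein genes 0 rose and 1 fell (RPL22, -0.26), of 82 mitochondrial ribosomal protein genes 0 rose and 3 fell, of 75 nuclear-encoded oxidative phosphorylation genes 1 rose and 1 fell, of 54 initiation and elongation factors 0 rose and 1 fell, and of 37 proteasome genes 0 rose and 1 fell. Their medians lay between -0.05 and 0.01. The 13 mitochondrially encoded mRNAs had 0 higher and 6 lower genes with a median of -0.32. MT-ND5, a complex I subunit, lay at 29310 and 23785 CPM in DMSO against 21438 and 20116 CPM in Dox, with the GFP line at 16050 to 18646 CPM. Without SMARCB1 DMSO replicate 1, the library with the highest mitochondrial share, 1 of these mRNAs fell, and without SMARCB1 DMSO replicate 2, 11 did. Without SMARCB1 Dox replicate 1, 2 fell, and without SMARCB1 Dox replicate 2, 1 rose and 1 fell. No difference between the lines was called for these mRNAs (edgeR).

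The GFP line gave the same genes as a control for Dox. Of the 152 genes chosen by rule, 83 were also called for the difference between the Dox effects, and 3 had an unadjusted p under 0.05 in the GFP line. Among named genes read at moderate levels in both lines, the GFP log2 fold change of UNC5B was -0.10, of AXL -0.19, of FZD7 0.14 and of ANGPT2 -0.03. C19orf73 and HOXA13 departed most from 0 there among genes above 1 CPM in some GFP library. Several genes could not serve as a control because the GFP line hardly expressed them, as for VLDLR, STC2, PDLIM3, LAMB1 and PAPPA. The share of calls that were also called for the difference varied between lists. It was 7 of 9 for receptor kinases, 8 of 12 for WNT, 4 of 6 for ERK feedback and FGF genes, 7 of 13 for angiogenic genes, 7 of 16 for the TGF-beta superfamily and 6 of 13 for lineage factors. It was 4 of 11 for muscle genes, 3 of 7 for integrins, 3 of 10 for Notch, 2 of 7 for AP-1 and 2 of 7 for cholesterol synthesis, and 1 of 11 for ATF4 targets, 1 of 10 for HOX genes and 0 of 6 for NF-kappaB genes, against 742 of 2234 over all genes. An effect that was called in the SMARCB1 line but not for the difference is not shown to differ between the lines.

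**Figure D3:**
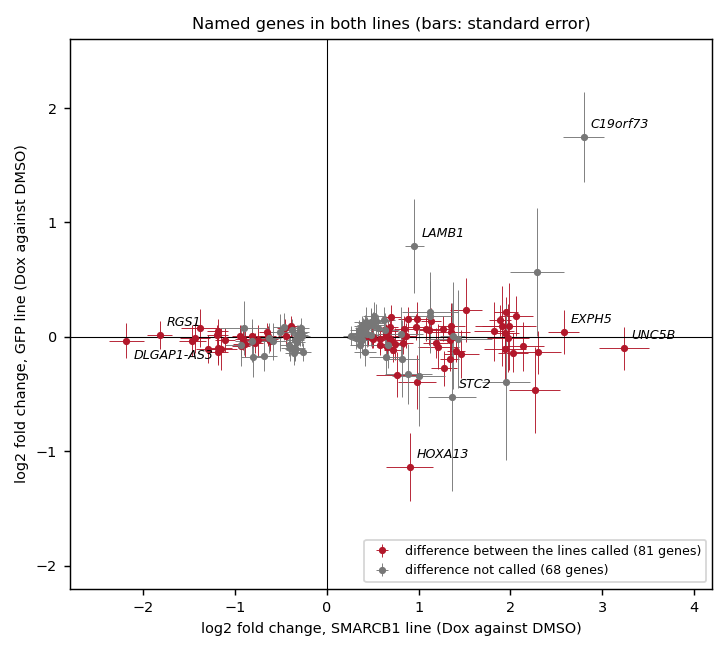
Log2 fold change of Dox against DMSO in the SMARCB1 line (x axis) and the GFP line (y axis) for 149 named genes, without SMARCB1 and PAPPA, which had 0 reads in GFP DMSO. Bars are standard errors, and red marks the 81 genes whose difference between the lines was called. Most genes spread along the x axis at y near 0, and C19orf73 lies off it at 1.74.

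Across the genome, responding genes were unevenly placed among gene classes. Of 12412 protein-coding genes 1273 rose (10.3%) and 774 fell (6.24%), whereas of 2462 lncRNAs 46 rose (1.87%) and 115 fell (4.67%), which became 21 and 69 when SMARCB1 DMSO replicate 1 was left out, and 23 and 56 when SMARCB1 Dox replicate 1 was. By level, with protein-coding genes split into 5 classes of equal size, increases were common already in the least expressed class, where 266 rose and 38 fell of 2480, and in the most expressed class 186 rose and 226 fell. Long genes changed more often than short ones, with 323 higher and 165 lower in the class of longest span and 207 and 122 in the class of shortest span. GC content of the exons divided the directions. From the lowest to the highest of 5 classes of exon GC, the share that rose went from 5.2% to 16.6% and the share that fell from 10.6% to 2.02%, and the median log2 fold change from -0.07 to 0.15, while in the GFP line the medians were 0.01 and -0.00094. Without SMARCB1 Dox replicate 1, 100 genes rose and 114 fell in the class of lowest GC, and 205 and 29 in that of highest GC. With a smooth GC trend of each library removed and the replicate number as a block, 337 and 310 genes rose in these classes and 247 and 175 fell, and the increases in the classes of shortest and longest span became 200 and 524. The same fit moved the median of the Notch list from 0.21 to 0.06 and of the epithelial junction and keratin list from 0.29 to 0.19. It moved that of the WNT list from 0.18 to 0.09 and of the AP-1 list from 0.19 to 0.11. Lineage factors (0.28), muscle (0.19), integrins (0.18) and cholesterol synthesis (-0.15) stayed near their values. Whether GC content reflects the libraries or the genes was not tested. By nuclear chromosome, the share called lay between 9.13% (X) and 17.7% (chromosome 6).

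**Figure D4:**
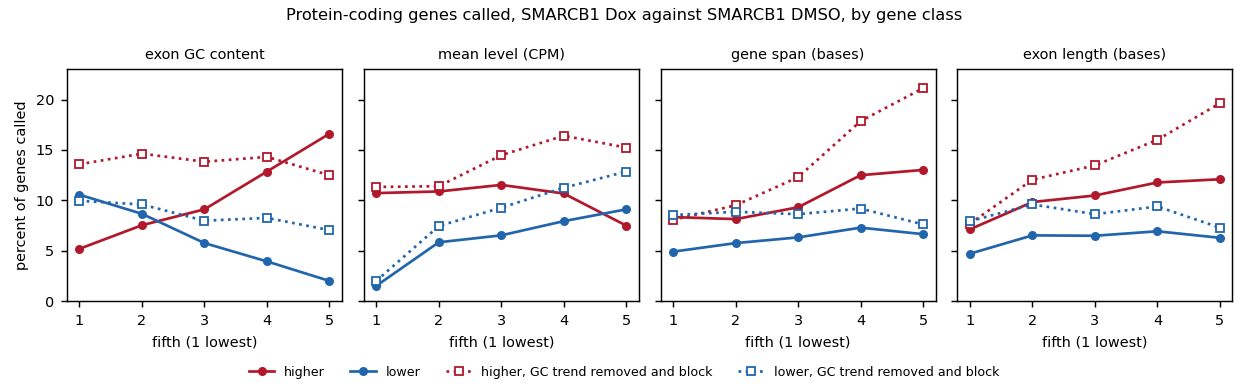
Percent of protein-coding genes called higher (red) or lower (blue) in SMARCB1 Dox against SMARCB1 DMSO by 5 equal classes of exon GC content, mean level, gene span and exon length, from 1 (lowest) to 5 (highest). Solid lines are the calls as reported and dotted lines the calls of a fit with the GC trend removed and the replicate number as a block, 2 changes made together. In that fit the increases lie at 337 and 310 genes in GC classes 1 and 5 and at 200 and 524 in span classes 1 and 5.

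Some gene families were counted as well. These families were picked after their values had been seen, and the counts are a description. Of 59 replication-dependent histone genes, which supply the nucleosomes of S phase, 23 rose (39%) and 0 fell, and all 59 had a positive log2 fold change, with a median of 0.34 against 0.01 in the GFP line. H4C6 and H3C6 rose by 0.65 and 0.61, and H2AC25 by 0.74 (edgeR adjusted p 0.000333). Whether reads shared by near-identical copies were counted is not given in the sources used here, and a sum does not restore reads left out. Summed over the family, the level was 2378 and 2384 CPM in SMARCB1 DMSO and 3229 and 2699 CPM in SMARCB1 Dox. It was 2614 and 2206 CPM in GFP DMSO and 2624 and 2203 CPM in GFP Dox. The summed level in SMARCB1 Dox replicate 2 was thus close to that of GFP replicate 1. The histone calls numbered 4 without SMARCB1 Dox replicate 1, 10 when SMARCB1 DMSO replicate 1 was left out, 15 without SMARCB1 DMSO replicate 2 and 32 without SMARCB1 Dox replicate 2. For the difference between the lines 5 of the 23 were called. Of 225 zinc finger genes of chromosome 19, many of which encode KRAB repressors, 6 rose and 24 fell, with a median of -0.14 at an exon GC of 43.4%. The share called was 13.3%, with 2.67% higher and 10.7% lower, against 14%, 8.33% and 5.69% over all genes. The decreases numbered 12 when either SMARCB1 DMSO replicate 1 or SMARCB1 Dox replicate 1 was left out, with 3 and 1 increases. Zinc finger genes of other chromosomes gave 14 higher and 27 lower of 256, and 15 and 10 fell without those same libraries. LncRNAs named as antisense or divergent to a gene gave 12 higher and 55 lower of 706 (median -0.16), with 33 and 27 lower without the same libraries, and snoRNA host genes 0 higher and 1 lower of 26.

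**Figure D5:**
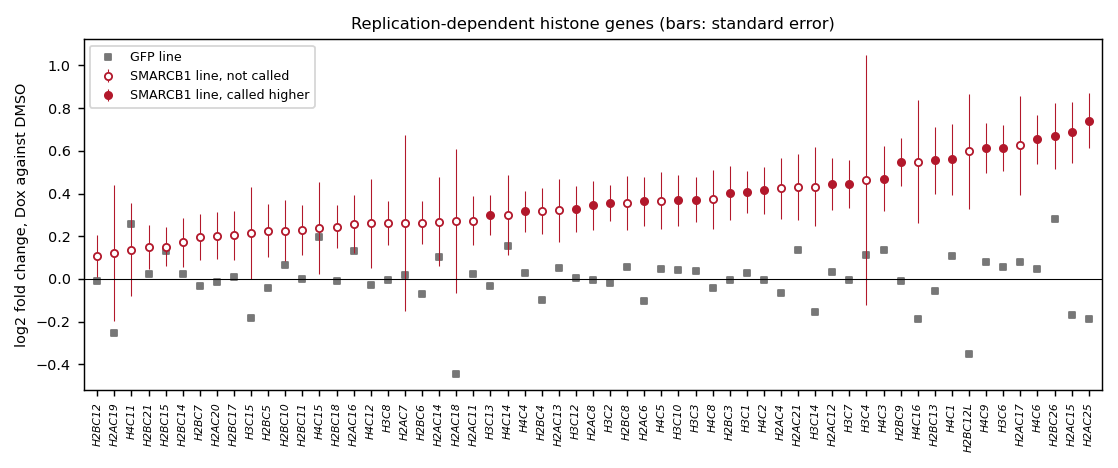
Log2 fold change of Dox against DMSO for the 59 replication-dependent histone genes in the SMARCB1 line (circles, bars are standard errors, filled where called) and in the GFP line (grey squares). All circles lie above 0, between 0.11 and 0.74, and the squares scatter around 0.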

How the data were processed

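RNA of G401 cells was sequenced in 4 groups of 2 libraries, grouped and numbered by their titles. The authors aligned the reads with STAR and deposited raw counts per gene, made with HTSeq in intersection-strict mode over exons of the GENCODE annotation on hg38, per the labels and the study's methods. The aligner and counter versions and the strand option of the counting are not given in the sources used here. The study's methods state that several plates of cells were pooled per condition and the experiment was done in duplicate. Whether the replicates were separate cultures is not given in the sources used here, so p-values measure the spread between these libraries. The sample labels and the methods name different library kits. The 5 closing entries that name no gene held 27% to 29.3% of the reads and were left out. Intervals cover counting error only.

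The deposited counts were tested with edgeR 4.0.16 (R 4.3.3) after its default expression filter and TMM scaling, with the 8 libraries in 1 quasi-likelihood model of 4 group means. For each of the 3 contrasts, genes with a Benjamini-Hochberg adjusted p under 0.05 were called. DESeq2 1.42.0, named in the study's methods, other scalings, no filter, a replicate block, a GC trend removed with that block, the SMARCB1 line alone and leaving out each library were the alternatives. CPM are counts scaled to TMM library sizes, and standard errors are the absolute log2 fold change divided by the square root of F. Symbols, positions, exon GC and overlaps came from the GENCODE reference on GRCh38 and promoters from RefSeq. The 53 lists (1856 genes, 1503 tested, 35 of them in several lists) and the rule for named genes were chosen with earlier results of these data known. The rule took SMARCB1, the 12 largest increases and 12 largest decreases at a mean of at least 5 CPM, the 10 largest changes in CPM, and up to 3 called genes per list at a mean of at least 2 CPM, except for the CPM rule with groups that do not overlap. Some results are not reported here. Other genes named, families, and members listed beside them were chosen after their values were seen. Lists are described by counts and medians beside those of all genes, with no set test.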

Additional observations from a re-analysis of the deposited data

Results flagged for a closer look

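The response to Dox differed between the SMARCB1 and GFP lines for 750 of the genes tested (edgeR, test of the difference itself), and 82 named genes with such a difference were marked for a second look. The values below are log2 differences, the Dox effect in the SMARCB1 line minus that in the GFP line.

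The largest positive differences were those of UNC5B (3.34), PDGFA (2.73), EXPH5 (2.54), KRT80 (2.43), HS3ST3B1 (2.22), KSR1 (2.17), KLF5 (2.05), HOXA13 (2.04), HSPB8 (1.98), APOL6 (1.91), SCARA3 (1.89), TRIM62 (1.88), EPHB2 (1.82), VDR (1.77), FZD7 (1.74), ZCCHC24 (1.74), AXIN2 (1.62), JDP2 (1.55), AXL (1.53) and FSTL1 (1.53). Differences above 1 were those of HES4 (1.38), CHST11 (1.36), FOXO4 (1.30), WNT5B (1.30), NRP2 (1.28), PODXL (1.26), CSRP2 (1.24), TGFBR1 (1.19), TFEB (1.09), PKP2 (1.06) and TGFB1 (1.01). Smaller positive differences were those of FBN1 (0.99), FOXC1 (0.89), IER3 (0.88), CDK6 (0.85), EXT1 (0.84), CA12 (0.84), CDON (0.82), ITGA3 (0.81), BAG3 (0.77), CCND3 (0.74), HSPG2 (0.73), PARP9 (0.72), SDC4 (0.66), HK2 (0.63), L1CAM (0.62), BHLHE40 (0.62), DNMT3B (0.61), KCNH2 (0.60), HK1 (0.53), ZMAT3 (0.52), CREB3L2 (0.50), MCM6 (0.50), TLN2 (0.45) and WARS1 (0.44).

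On the negative side, differences beyond -1 were those of DLGAP1-AS3 (-2.15), RGS1 (-1.83), ERBB3 (-1.46), FGF20 (-1.43), NXPH3 (-1.42), FGFBP3 (-1.24), UTS2B (-1.21), WDR17 (-1.19), ANGPT2 (-1.09), BMP6 (-1.08), XKR7 (-1.05) and B3GAT2 (-1.05). Smaller ones were those of GJA1 (-0.95), EMP1 (-0.89), KCNJ2 (-0.86), RGS2 (-0.83), MEOX1 (-0.82), WNT2B (-0.73), IGFBP3 (-0.72), BCL2 (-0.70), BMI1 (-0.65), F2RL1 (-0.61), F2RL2 (-0.58), MYC (-0.54), EEF1E1 (-0.48) and PHF10 (-0.46). PAPPA had a difference of -5.49, which rests on 0 reads in GFP DMSO and is no measure of size.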

How the results depend on the processing

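The direction of SMARCB1 and of every one of the 152 named genes was kept under all alternatives run. Totals of calls from fits without 1 library can include genes outside the 2234, and not all of the 2234 were called in each. Of the 2234 genes called, leaving out 1 library gave between 1284 (without SMARCB1 Dox replicate 1) and 2009 calls, and the difference between the lines gave between 390 (without GFP Dox replicate 1) and 805 calls in place of 750. Without the expression filter 1 gene was called in the GFP line in place of 0. Whether the replicate numbers pair the libraries was not settled, and the main model left them out. Deviations of SMARCB1 Dox and SMARCB1 DMSO correlated at 0.148 over 15931 genes, with 2 pairs per contrast. Those of the other pairs of groups correlated at 0.0309 to 0.0903. These values are low but all positive, and noise in the counts lowers them, so they cannot exclude a shared replicate effect. With the replicate block 3149 genes were called, among them the 2234, and the difference gave 1282, or 1219 with the GC trend removed as well. DESeq2 called 1176 genes higher and 811 lower, of which 1949 were shared. Library totals as the scaling led to 1986 increases and 497 decreases. Among named genes, 17 lost their call under library totals, 15 with the SMARCB1 line alone, 5 with DESeq2, and between 21 and 35 when 1 SMARCB1-line library was left out. With 2 libraries a group, a lone library left in a group is assumed to vary like the others, and low genes are limited by depth.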

Other observations

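A small set of genes was close to silent without Dox. Of the genes called higher, 11 had at most 3 reads over both SMARCB1 DMSO libraries and reached at least 0.5 CPM in Dox. Since they were chosen for their low DMSO values, their changes are a description. MOGAT3, an acyltransferase of lipid synthesis, had 0 reads in DMSO and 57 in Dox, at least 16.7-fold higher, and PAQR9, a member of the progestin and adipoQ receptor family, had 0 and 63, at least 18.5-fold higher, both against a floor of 3 counts over the group. The atrial myosin light chain gene MYL7 had 1 and 47 reads, a ratio of 41.4 with an exact 95% counting interval of 7.07 to 1669, and SEMA6A had 2 and 43 (18.9, 4.93 to 161).

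Families chosen after their values were seen added the following counts. Of 15 tubulins 5 rose and 0 fell, of 40 TRIM ubiquitin ligases 9 rose and 5 fell, and of 17 ADAM and ADAMTS proteases 1 rose and 4 fell. Of 236 SLC transporters 24 rose and 29 fell, and of 190 TMEM proteins 10 rose and 18 fell. In this order the share called was 33.3%, 35%, 29.4%, 22.5% and 14.7%, against 14% over all genes. The counts of these families moved when 1 library was left out. With SMARCB1 DMSO replicate 1 left out, 3 TRIM genes rose and 2 fell, 26 SLC genes rose and 14 fell, and 9 TMEM genes fell. With SMARCB1 DMSO replicate 2 left out, 13 SLC genes rose and 44 fell, 6 ADAM and ADAMTS genes and 34 TMEM genes fell, and without SMARCB1 Dox replicate 1, 3 tubulins, 5 TRIM, 16 SLC and 5 TMEM genes rose and 3 TRIM, 16 SLC and 11 TMEM genes fell. Without SMARCB1 Dox replicate 2, 3 TRIM and 19 SLC genes fell. The summed level of the tubulins was 1673 and 1718 CPM in SMARCB1 DMSO and 2029 and 1972 CPM in SMARCB1 Dox, against 1574 and 1654 CPM in GFP DMSO and 1712 and 1656 CPM in GFP Dox.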
